A study of Mus musculus with 60 samples.

Results

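The interferon-stimulated genes followed here were 45 mouse genes of the interferon response, chosen by name and matched by symbol and gene identifier to the deposited tables. All 45 were found among the 49315 genes counted, and all 45 passed the count minimum in each of the 17 comparisons made. Whole blood was taken once from each of 60 male CD2F1 mice, hybrids that were 5 to 6 weeks old at purchase, in 10 groups of 6. Every mouse received 12 oral gavages over 6 days, either of vehicle (water with methylcellulose and polyvinylpyrrolidone) or of BIO 300, a solid dispersion of synthetic genistein, at 50, 100 or 200 mg/kg. Groups at vehicle and at each dose were bled on Day 0, when 24 h had passed since dosing ended, and other groups on Day 1, when 48 h had passed. A vehicle group and a 200 mg/kg group also received 9.2 Gy of total-body irradiation (TBI) with cobalt gamma rays on Day 0, at the same interval from dosing as the Day 0 bleeds, and were bled on Day 1, which was 24 h after TBI. The study's methods describe dosing without TBI and dosing before TBI as separate parts, which comparisons of irradiated with unirradiated mice span. They name no sham irradiation. No transgene or deletion was named for any group. The mice are separate animals, so that the p-values given below refer to the spread between mice, and cages, which held 3 mice each, were not given in the labels.

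Interferons are secreted proteins that bind receptors on the same or neighbouring cells. Type I and type III interferons act through the kinases Jak1 and Tyk2 on a complex that holds Stat2 and Irf9 and binds the interferon-stimulated response element (ISRE) in promoters, and type II interferon acts through the gamma-activated site (GAS). The genes switched on in this way block viral replication, sense foreign nucleic acids, disrupt the vacuoles of intracellular pathogens and adjust the response itself, and neutrophils, monocytes and lymphocytes in blood all express many of them.

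The motifs through which these genes are induced were looked for in RefSeq promoters of the build GRCm38.p6, which cover 250 bases before to 50 bases after an annotated start. The ISRE core GAAANNGAAA, on either strand, was present in a promoter of 3.99% of 27025 genes. Of the 45 genes, 33 had an entry in the promoter table and 21 of these (63.6%) held the core. The GAS core TTCNNNGAA, which reads the same on both strands, was present in 9.55% of all genes and in 8 of the 33 genes (24.2%). Windows of 60 bases that lie wholly upstream of the start are given for the *Ifit* genes most changed after TBI, for *Isg15*, *Oas3*, *Rsad2* and *Igtp*, which were called at BIO 300 doses, and for *Ifi203*, which was called lower after TBI and at 100 and 200 mg/kg on Day 1, 5′ to 3′ on the strand of the gene, with every match to the ISRE core in capitals. The windows for *Ifit3* and *Ifit3b*, neighbouring near-identical genes, were the same in all 60 bases, and overlapping matches run together in *Isg15*.
Ifit3, chr19:34583365-34583424, plus strand: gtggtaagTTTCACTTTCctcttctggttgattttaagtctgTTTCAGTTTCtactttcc
Ifit3b, chr19:34607761-34607820, plus strand: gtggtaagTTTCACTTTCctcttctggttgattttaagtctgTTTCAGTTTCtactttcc
Ifit1, chr19:34640769-34640828, plus strand: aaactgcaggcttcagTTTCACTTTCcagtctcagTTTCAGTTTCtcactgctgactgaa
Isg15, chr4:156200856-156200915, minus strand: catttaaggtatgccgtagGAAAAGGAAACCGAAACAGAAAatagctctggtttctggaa
Oas3, chr5:120777700-120777759, minus strand: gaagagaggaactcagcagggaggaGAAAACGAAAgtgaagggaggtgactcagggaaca
Rsad2, chr12:26456538-26456597, minus strand: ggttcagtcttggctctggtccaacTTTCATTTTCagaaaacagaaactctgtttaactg
Igtp, chr11:58199496-58199555, plus strand: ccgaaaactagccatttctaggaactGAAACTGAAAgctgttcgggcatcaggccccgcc
Ifi203, chr1:173942493-173942552, minus strand: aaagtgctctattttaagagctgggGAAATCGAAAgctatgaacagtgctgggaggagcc
Promoters of *Oas2*, *Mx1*, *Mx2*, *Usp18*, *Dhx58*, *Zbp1*, *Rtp4*, *Ifi27l2a*, *Ifi204*, *Parp9*, *Parp14* and *Iigp1* were not analysed here. A match describes the letters of a window and not a site in use. Of the 21 genes with the core, 17 were significantly higher and 1 was lower in irradiated, vehicle-treated mice than in vehicle-treated mice on Day 1, and of the 12 without it 7 were higher and 0 were lower, where 19.6% of all genes tested were higher and 16.4% lower.

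Total counts per mouse ranged from 15099415 to 45589415, with a median of 24877993.5. Levels are given below as CPM (counts scaled to library size by edgeR's TMM factors), and as the median of a group with its lowest and highest mouse in parentheses. A gene was called significantly higher or lower where edgeR's quasi-likelihood test gave a Benjamini-Hochberg adjusted p under 0.05 over all genes tested and an absolute log2 fold change over 1. Libraries at 100 and 200 mg/kg on Day 1 differed in composition from vehicle on Day 1, with a median haemoglobin share of 15.9% and 16.9% of counts against 9.76% with vehicle and a median share of the repeat-derived transcript *Gm26917* of 0.278% and 0.165% against 7.36%. At 50 mg/kg on Day 0 these median shares were 5.32% and 11.8%, against 9.71% and 6.64% with vehicle of that day. In irradiated mice *Gm26917* had a median share of 2.07% with vehicle and 1.65% with 200 mg/kg. Total counts in place of TMM moved the median log2 fold change of all genes from -0.48 to -1.96 at 200 mg/kg and from -0.38 to -1.76 at 100 mg/kg on Day 1. The same change of scale moved that median from 0.03 to 0.69 at 50 mg/kg on Day 0 and from 0.09 to -0.28 after TBI. Shares of all genes are given for the TMM scale only, so counts of calls with total counts carry this shift of all genes. *Alb*, the hepatocyte gene for albumin, was at 100 CPM or more in 10 libraries, and counts of calls without them are given where they matter. Because whole blood is a mixture, fewer cells of a type and less RNA per cell cannot be told apart.

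Per kilobase of exon, *Rsad2* stood first among the 45 genes in vehicle-treated mice on Day 1, with a median of 390.0 CPM per kb. *Rsad2* encodes viperin, an enzyme that makes a chain-terminating nucleotide. The next were *Ifitm3*, a membrane protein that blocks viral entry, at 68.4 CPM per kb, *Samd9l*, an inhibitor of translation, at 53.1 CPM per kb, and *Isg15*, a ubiquitin-like modifier, at 45.2 CPM per kb. The lowest was *Ifi44* at 0.70 CPM per kb. After TBI *Rsad2* was still first, at 313 CPM per kb, and *Ifitm3* second, at 303 CPM per kb. In this order *Ifit3* moved from place 28 to place 7 and *Ifit3b* from place 41 to place 12. *Rsad2* made up a median of 57.5% of the summed counts of the 45 genes with vehicle on Day 1, 83.2% at 200 mg/kg on Day 1 and 21.8% after TBI.

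**Figure D1:**
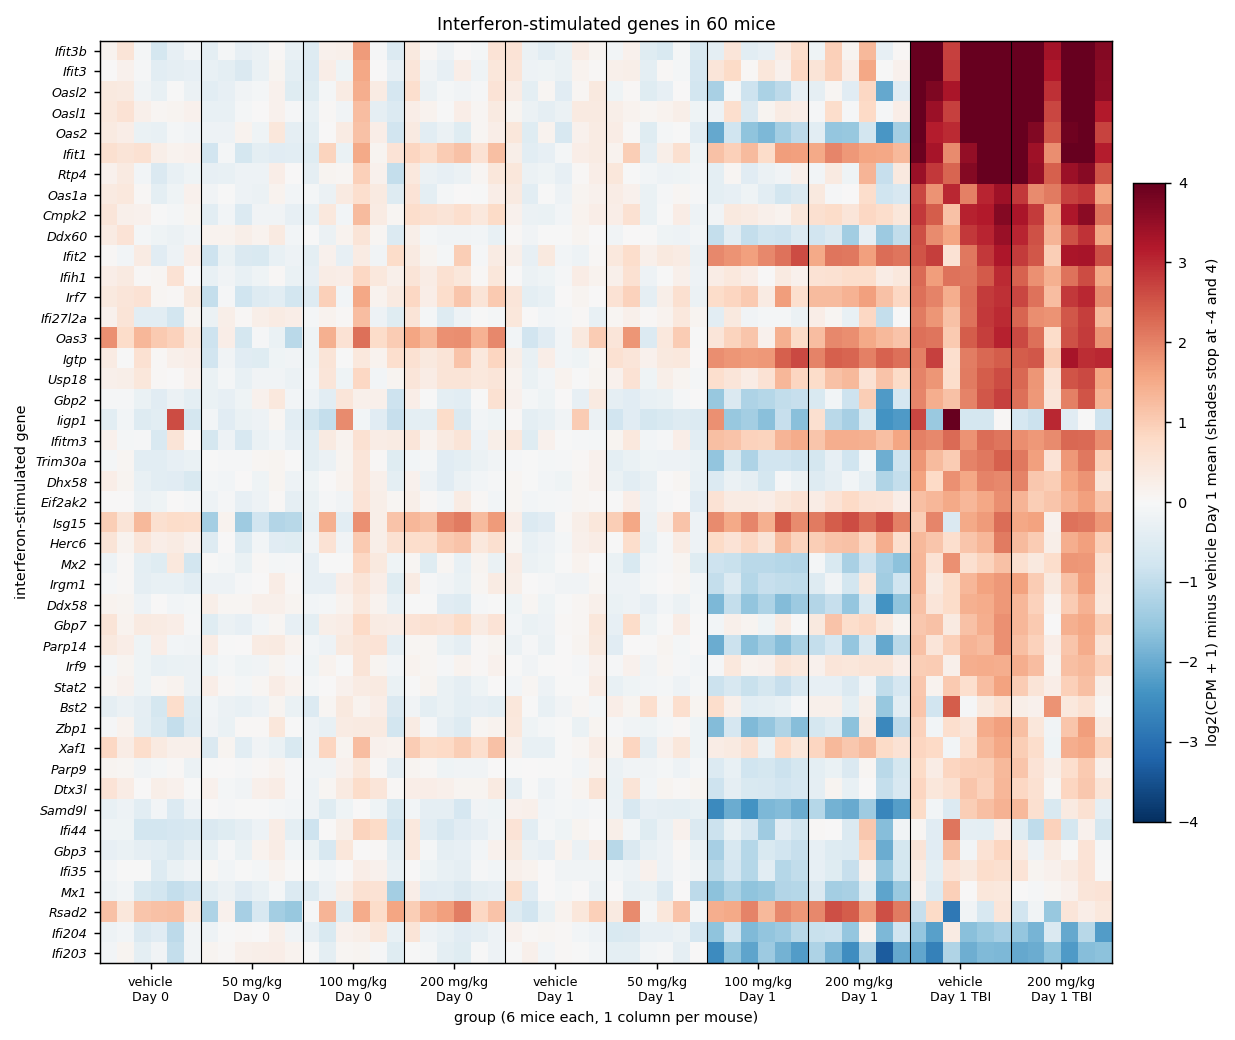
Heat map of the 45 genes (rows, ordered by log2 fold change after TBI) in the 60 mice (columns, by group), coloured by log2(CPM + 1) minus the mean of that gene in vehicle-treated mice on Day 1, with shades that stop at -4 and 4. The 12 irradiated mice are raised in most rows, while the columns of 100 and 200 mg/kg on Day 1 hold raised and lowered rows side by side.

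Most of the 45 genes were higher after TBI, led by the *Ifit* and *Oas* families, and few were lower. Relative to vehicle-treated mice on Day 1, 31 genes were significantly higher and 2 lower in irradiated, vehicle-treated mice, where 19.6% of 25146 genes tested were higher and 16.4% lower. With total counts in place of TMM 24 were higher and 2 lower. Over the 45 genes the log2 fold change had a median of 1.54, against 0.09 over all genes. Relative to vehicle-treated mice on Day 0, 36 were higher and 1 lower (15.1% and 11.8% of all genes, and 28 and 2 of the 45 with total counts). Of these, 30 were also called higher relative to Day 1, *Ifi44*, *Mx1*, *Zbp1*, *Parp9*, *Samd9l* and *Gbp3* were called higher relative to Day 0 and not Day 1, and *Isg15* relative to Day 1 and not Day 0. For 29 of the 45 genes every irradiated, vehicle-treated mouse was above every unirradiated vehicle-treated mouse of Day 1, and for 1 gene every one was below (11.1% and 14.0% of all genes).

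BIO 300 without irradiation gave calls in both directions. At 200 mg/kg on Day 1, 11 of the 45 genes were higher and 7 lower than with vehicle (17.3% and 30.5% of all genes), and at 100 mg/kg 6 were higher and 10 lower (18.2% and 30.6%). Scaled by total counts, the higher dose had 0 higher and 28 lower and the lower one 0 higher and 31 lower, so that none of the genes called higher on the TMM scale was called higher on this one. With total counts the median log2 fold change at 200 mg/kg was -1.41 over the 45 genes and -1.96 over all genes. At 100 mg/kg these medians were -1.51 and -1.76. The falls on this scale are therefore not particular to the 45 genes. At 50 mg/kg on Day 0, 0 genes were higher and 3 lower (0.127% and 4.38% of all genes), and with total counts 4 were higher and 2 lower. Leaving out mouse 2 of the 50 mg/kg group raised the count at 50 mg/kg on Day 0 to 5. On Day 0 at 100 and 200 mg/kg and on Day 1 at 50 mg/kg, edgeR and DESeq2 both called 0 of the 45 genes, and edgeR called 0% of all genes. In these comparisons 2, 13 and 12 of the 45 genes had an unadjusted p under 0.05 in edgeR. Over all genes tested the numbers were 726 of 24000, 2145 of 23795 and 4458 of 24118. Between the vehicle groups of Day 1 and Day 0 edgeR called 0 of the 45 genes (0% of all genes), and 1 was called by DESeq2. Here 15 of the 45 genes and 3007 of all 24375 genes reached an unadjusted p under 0.05 in edgeR. The smallest and largest log2 fold changes in these 4 comparisons were -0.89 (*Iigp1*) and 0.81 (*Isg15*) at 200 mg/kg and -0.55 (*Iigp1*) and 0.89 (*Ifi44*) at 100 mg/kg on Day 0, -0.81 (*Iigp1*) and 0.73 (*Isg15*) at 50 mg/kg on Day 1, and -1.02 (*Oas3*) and 0.75 (*Mx1*) between the vehicle groups.

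**Figure D2:**
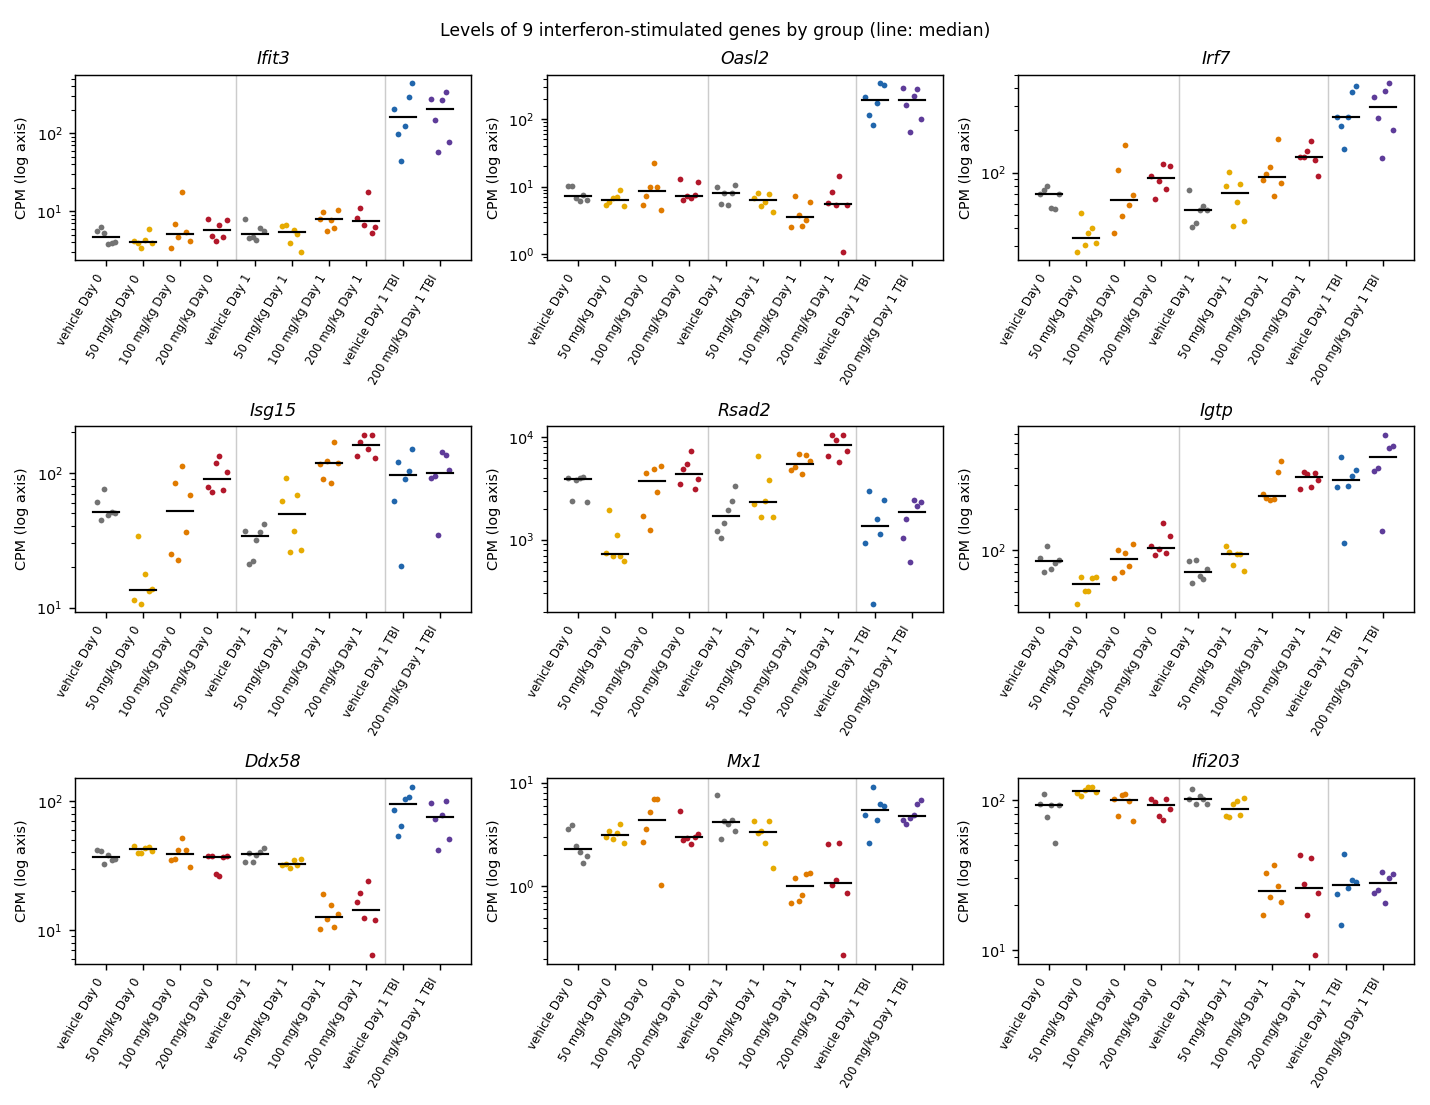
Levels of 9 of the genes in CPM on log axes (vertical) in the 10 groups (horizontal), with 1 point per mouse and a line at the median. *Oasl2* is raised in the irradiated groups alone. *Ifit3* is raised most in the irradiated groups and has slightly higher medians at 100 and 200 mg/kg on Day 1 than with vehicle. *Isg15* and *Igtp* are raised at 100 and 200 mg/kg on Day 1 and also in the irradiated groups. *Rsad2* is raised at these doses and not in the irradiated groups, and *Ddx58*, *Mx1* and *Ifi203* are lower at these doses.

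*Isg15*, the *Ifit* genes and *Eif2ak2* act on viral RNA, protein synthesis and newly made proteins, and all 6 were significantly higher after TBI. On Day 0, *Isg15* was at 50.8 (44.8 to 76.4) CPM with vehicle, 13.5 (10.7 to 33.7) CPM at 50 mg/kg, 52.4 (22.7 to 112) CPM at 100 mg/kg and 89.9 (72.7 to 132) CPM at 200 mg/kg. On Day 1 the levels in the same order of dose were 34.2 (20.9 to 42.0), 49.6 (25.9 to 91.7), 117 (84.1 to 169.7) and 159.5 (128 to 191) CPM. After TBI it was at 96.8 (20.5 to 149) CPM with vehicle and 100.2 (34.6 to 143) CPM at 200 mg/kg. All mice at 100 and 200 mg/kg on Day 1 were above all vehicle-treated mice, all mice at 50 mg/kg on Day 0 were below those given vehicle on Day 0, and the irradiated mice overlapped vehicle on Day 1. *Isg15* had a log2 fold change of 2.41 (SE 0.18, adjusted p = 6.07e-08) at 200 mg/kg and 1.93 (SE 0.20, adjusted p = 1.49e-06) at 100 mg/kg on Day 1, -1.72 (SE 0.26, adjusted p = 0.00255) at 50 mg/kg on Day 0 and 1.49 (SE 0.38, adjusted p = 0.00645) after TBI. With total counts *Isg15* was at 0.879 and 0.535 at 200 and 100 mg/kg on Day 1, not called. At 50 mg/kg on Day 0 it was then -1.106 and still called. *Ifit1* encodes a protein that binds RNA lacking the host's cap methylation. Day 0 levels of *Ifit1* were 17.3 (14.4 to 20.5) CPM with vehicle, 9.30 (7.21 to 12.2) CPM at 50 mg/kg, 16.8 (9.04 to 39.2) CPM at 100 mg/kg and 25.9 (19.7 to 30.9) CPM at 200 mg/kg. Day 1 gave 13.7 (9.36 to 16.7) CPM with vehicle and 14.8 (9.77 to 26.4), 31.2 (22.3 to 43.0) and 40.4 (33.1 to 52.8) CPM at 50, 100 and 200 mg/kg. Irradiated mice had 185 (50.6 to 408) CPM with vehicle and 193 (49.5 to 339) CPM with 200 mg/kg BIO 300. *Ifit1* in irradiated, vehicle-treated mice was above every unirradiated vehicle-treated mouse, by 3.92 (SE 0.43, adjusted p = 2.38e-05) on the log2 scale, and both upper doses on Day 1 were also above vehicle without overlap, by 1.73 (SE 0.16, adjusted p = 5.04e-07) and 1.35 (SE 0.18, adjusted p = 2.11e-05). With total counts the value at 200 mg/kg was 0.22 and that at 100 mg/kg turned to -0.05.

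*Ifit3*, which stabilises the complex of *Ifit* proteins on RNA, separated irradiated from unirradiated mice and was not called at any dose of BIO 300 relative to vehicle. Its log2 fold change on Day 1 was 0.82 (SE 0.28, adjusted p = 0.0192) at 200 mg/kg, under the fold threshold. At 100 mg/kg it was 0.60 (SE 0.20, adjusted p = 0.0156), and both turned negative with total counts (-0.68 and -0.78). *Ifit3* on Day 0 lay at 4.63 (3.77 to 6.30) CPM with vehicle, 4.04 (3.34 to 5.90) CPM at 50 mg/kg, 5.10 (3.39 to 17.7) CPM at 100 mg/kg and 5.74 (4.14 to 7.97) CPM at 200 mg/kg. For Day 1 these levels were 5.14 (4.30 to 7.89), 5.36 (3.03 to 6.61), 7.91 (5.64 to 10.5) and 7.45 (5.31 to 17.9) CPM. With TBI, *Ifit3* reached 165 (43.9 to 444) CPM under vehicle and 209 (58.3 to 341) CPM under 200 mg/kg. The lowest irradiated mouse was above the highest of the 48 unirradiated mice. The log2 fold change after TBI was 5.17 (SE 0.53, adjusted p = 1.41e-05), and that of its neighbour *Ifit3b*, the largest of the 45 genes, was 5.52 (SE 0.56, adjusted p = 1.32e-05). Reads that match *Ifit3* and *Ifit3b* alike have no unique hit, so the division of counts between these copies is uncertain. *Ifit2* was at 37.0 (29.7 to 49.9) CPM with vehicle on Day 1, 166 (110.1 to 179) CPM at 200 mg/kg and 241 (56.3 to 362) CPM after TBI. Its log2 fold change was 2.52 (SE 0.36, adjusted p = 0.000125) after TBI, 2.06 (SE 0.16, adjusted p = 5.75e-08) at 200 mg/kg and 2.11 (SE 0.17, adjusted p = 1.33e-07) at 100 mg/kg on Day 1, and it stayed positive with total counts at both doses (0.51 and 0.70). *Eif2ak2*, the kinase PKR that halts translation, had a log2 fold change of 1.54 (SE 0.14, adjusted p = 6.95e-06) after TBI and was not called at any dose of BIO 300 relative to vehicle. At 200 mg/kg on Day 1 its log2 fold change was 0.62 (SE 0.115, adjusted p = 0.000311), under the fold threshold, with every mouse above vehicle. With total counts that value was -0.92.

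*Rsad2*, the most abundant of the 45 genes per kilobase, was called at all 3 doses on one of the days and not after TBI. With vehicle, 50, 100 and 200 mg/kg on Day 0, *Rsad2* was at 3868 (2346 to 4055), 719 (617 to 1950.0), 3677 (1231 to 5205) and 4347 (3103 to 7278) CPM. The same groups on Day 1 had 1693 (1028 to 3351), 2309 (1643 to 6471), 5427 (4333 to 6873) and 8349 (5729 to 10439) CPM of *Rsad2*. *Rsad2* under TBI was at 1359 (239 to 2965) CPM in vehicle-treated and 1848 (609.7 to 2430.1) CPM in BIO 300-treated mice. Mice at 50 mg/kg on Day 0 were all below vehicle of that day, mice at 100 and 200 mg/kg on Day 1 were all above vehicle, and irradiated, vehicle-treated mice overlapped their controls. The log2 fold change of *Rsad2* was -1.81 (SE 0.31, adjusted p = 0.00293) at 50 mg/kg on Day 0, 2.20 (SE 0.31, adjusted p = 3.08e-05) at 200 mg/kg and 1.61 (SE 0.30, adjusted p = 0.000315) at 100 mg/kg on Day 1. It was -0.32 (SE 0.50, adjusted p = 0.611) after TBI, not significant. With total counts *Rsad2* was at 0.698 and 0.248 at 200 and 100 mg/kg on Day 1, not called. At 50 mg/kg on Day 0 it was then -1.19 and still called. *Cmpk2*, a mitochondrial nucleotide kinase and the neighbour of *Rsad2* on chromosome 12, was at 11.0 (8.90 to 13.3) CPM with vehicle on Day 1 and 90.7 (25.5 to 149) CPM after TBI, a log2 fold change of 2.98 (SE 0.35, adjusted p = 3.51e-05).

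The oligoadenylate synthetases make the second messenger of RNase L, and all 5 were significantly higher after TBI. On Day 0, *Oas2* was at 5.19 (4.40 to 7.51) CPM with vehicle, 4.92 (4.24 to 8.17) CPM at 50 mg/kg, 6.39 (2.91 to 14.0) CPM at 100 mg/kg and 5.37 (3.73 to 7.66) CPM at 200 mg/kg. On Day 1 the levels in the same order of dose were 6.47 (3.33 to 8.17), 5.44 (3.78 to 7.19), 1.40 (0.630 to 2.88) and 1.48 (0.325 to 4.04) CPM. After TBI it was at 119.9 (52.4 to 203) CPM with vehicle and 91.7 (37.0 to 161) CPM at 200 mg/kg. The irradiated mice stood above all unirradiated mice, and mice at 100 mg/kg on Day 1 stood below vehicle, while those at 200 mg/kg overlapped vehicle. *Oas2* had a log2 fold change of 4.36 (SE 0.41, adjusted p = 9.45e-06) after TBI and of -1.51 (SE 0.42, adjusted p = 0.00593) at 200 mg/kg and -1.84 (SE 0.36, adjusted p = 0.000488) at 100 mg/kg on Day 1. *Oasl2* belongs to the synthetase-like branch of the family. Day 0 levels of *Oasl2* were 7.22 (6.03 to 10.3) CPM with vehicle, 6.37 (5.15 to 8.76) CPM at 50 mg/kg, 8.52 (4.45 to 22.5) CPM at 100 mg/kg and 7.36 (6.35 to 12.8) CPM at 200 mg/kg. Day 1 gave 8.12 (5.31 to 10.5) CPM with vehicle and 6.29 (4.21 to 7.91), 3.52 (2.55 to 7.24) and 5.57 (1.08 to 14.3) CPM at 50, 100 and 200 mg/kg. Irradiated mice had 195 (81.7 to 345) CPM with vehicle and 194 (65.3 to 294) CPM with 200 mg/kg BIO 300. Irradiated mice again stood above all others, with a log2 fold change of 4.70 (SE 0.40, adjusted p = 4.92e-06), and *Oasl2* was not called at any dose of BIO 300 relative to vehicle. At 100 mg/kg on Day 1 its log2 fold change was -0.84 (SE 0.28, adjusted p = 0.0176), under the fold threshold. *Oasl1* (4.47) and *Oas1a* (3.41) had log2 fold changes after TBI of similar size. *Oas3* was at 78.9 (53.7 to 144) CPM with vehicle and 28.5 (18.0 to 47.6) CPM at 50 mg/kg on Day 0, and at 36.9 (22.8 to 81.1) CPM with vehicle and 107 (88.1 to 152) CPM at 200 mg/kg on Day 1. Its log2 fold change was -1.505 (SE 0.27, adjusted p = 0.00349) at 50 mg/kg on Day 0, 1.49 (SE 0.27, adjusted p = 0.000233) at 200 mg/kg on Day 1 (0.015 with total counts) and 2.29 (SE 0.37, adjusted p = 0.000327) after TBI.

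The Mx proteins are dynamin-like GTPases that trap viral nucleocapsids, and many laboratory strains carry defective *Mx1* alleles. *Mx1* on Day 0 lay at 2.30 (1.68 to 3.87) CPM with vehicle, 3.13 (2.60 to 3.99) CPM at 50 mg/kg, 4.38 (1.03 to 7.03) CPM at 100 mg/kg and 2.97 (2.54 to 5.34) CPM at 200 mg/kg. For Day 1 these levels were 4.14 (2.88 to 7.66), 3.32 (1.52 to 4.28), 1.01 (0.70 to 1.36) and 1.09 (0.217 to 2.64) CPM. With TBI, *Mx1* reached 5.43 (2.61 to 9.13) CPM under vehicle and 4.74 (4.03 to 6.73) CPM under 200 mg/kg. Mice at 100 and 200 mg/kg on Day 1 were all below vehicle of that day and irradiated mice overlapped it. *Mx1* had a log2 fold change of -2.05 (SE 0.28, adjusted p = 1.9e-05) at 100 mg/kg and -1.55 (SE 0.42, adjusted p = 0.00547) at 200 mg/kg on Day 1. The value after TBI was 0.29 (SE 0.30, adjusted p = 0.437) against Day 1, not significant, and 1.13 (SE 0.29, adjusted p = 0.00913) against Day 0, where it was called (0.81 and not called without the libraries with *Alb* at 100 CPM or more). *Mx2* was called higher after TBI (1.34) and lower at 200 (-1.25) and 100 mg/kg (-1.61) on Day 1, each a log2 fold change.

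*Ifitm3*, which holds viruses in endosomes, was higher in every irradiated mouse and at both upper doses on Day 1. With vehicle, 50, 100 and 200 mg/kg on Day 0, *Ifitm3* was at 47.1 (31.1 to 68.7), 38.4 (28.6 to 44.2), 59.2 (35.4 to 73.9) and 58.7 (41.4 to 68.9) CPM. The same groups on Day 1 had 46.4 (34.1 to 64.6), 49.1 (35.6 to 64.4), 108 (88.5 to 135) and 129.8 (104 to 145) CPM of *Ifitm3*. *Ifitm3* under TBI was at 206 (169 to 231) CPM in vehicle-treated and 178 (159.9 to 238) CPM in BIO 300-treated mice. None of the irradiated mice or of the mice at 100 and 200 mg/kg on Day 1 fell into the range of vehicle on Day 1. The log2 fold change was 2.04 (SE 0.16, adjusted p = 3.7e-06) after TBI, 1.45 (SE 0.14, adjusted p = 6.67e-07) at 200 mg/kg and 1.23 (SE 0.14, adjusted p = 5.25e-06) at 100 mg/kg, and the values at both doses turned slightly negative with total counts (-0.09 and -0.18). *Ifi27l2a*, a small mitochondrial protein gene, separated irradiated from unirradiated vehicle-treated mice. On Day 0, *Ifi27l2a* was at 16.5 (10.6 to 26.4) CPM with vehicle, 21.4 (15.2 to 23.0) CPM at 50 mg/kg, 17.9 (12.5 to 44.2) CPM at 100 mg/kg and 17.1 (12.3 to 26.4) CPM at 200 mg/kg. On Day 1 the levels in the same order of dose were 17.7 (14.6 to 25.1), 19.8 (18.6 to 24.7), 16.6 (13.2 to 24.0) and 18.4 (8.78 to 32.6) CPM. After TBI it was at 82.1 (41.6 to 152) CPM with vehicle and 81.5 (46.4 to 130.3) CPM at 200 mg/kg. The log2 fold change after TBI was 2.31 (SE 0.30, adjusted p = 6.49e-05), and the BIO 300 groups without irradiation overlapped vehicle on both days. *Bst2*, the tether that holds budding virions on the cell surface, was not called in any comparison. Day 0 levels of *Bst2* were 4.42 (3.27 to 10.3) CPM with vehicle, 4.96 (4.65 to 6.46) CPM at 50 mg/kg, 6.49 (3.65 to 8.17) CPM at 100 mg/kg and 4.42 (4.25 to 5.30) CPM at 200 mg/kg. Day 1 gave 5.73 (4.66 to 8.60) CPM with vehicle and 6.93 (6.29 to 10.0), 5.20 (4.20 to 10.2) and 5.63 (1.41 to 7.13) CPM at 50, 100 and 200 mg/kg. Irradiated mice had 8.91 (3.08 to 35.9) CPM with vehicle and 7.75 (6.25 to 23.0) CPM with 200 mg/kg BIO 300. Every treated group overlapped its vehicle group, and in 5 of the 9 groups that held a library with *Alb* at 100 CPM or more, such a library was the highest for *Bst2*.

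The other effectors differed among themselves. *Rtp4*, a chaperone of receptor transport, was at 8.89 (7.14 to 13.0) CPM with vehicle on Day 1 and 122 (50.3 to 191) CPM after TBI, a log2 fold change of 3.68 (SE 0.34, adjusted p = 8.4e-06). *Samd9l* was at 288 (276 to 348) CPM with vehicle on Day 1, 74.9 (50.5 to 90.5) CPM at 100 mg/kg and 77.1 (48.9 to 137) CPM at 200 mg/kg. It was among the genes that fell most at both doses, with log2 fold changes of -2.0 (SE 0.15, adjusted p = 9.27e-08) and -1.74 (SE 0.21, adjusted p = 5.58e-06). *Xaf1*, a cofactor of apoptosis, was called higher at 200 mg/kg on Day 1 (1.08 on the log2 scale, -0.43 with total counts), and *Zbp1*, a sensor of left-handed nucleic acids, was called lower at 100 mg/kg (-1.46). *Ifi35* and *Ifi44* were not called in either of these comparisons or after TBI relative to Day 1.

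The transcription factors *Irf7*, *Irf9* and *Stat2* were all significantly higher after TBI. *Irf7* on Day 0 lay at 70.4 (54.9 to 80.2) CPM with vehicle, 34.2 (27.3 to 51.8) CPM at 50 mg/kg, 63.7 (37.1 to 159) CPM at 100 mg/kg and 91.1 (64.7 to 116) CPM at 200 mg/kg. For Day 1 these levels were 54.1 (40.8 to 75.7), 71.4 (41.4 to 101), 93.6 (67.8 to 174) and 129 (94.9 to 168) CPM. With TBI, *Irf7* reached 250.1 (148 to 414) CPM under vehicle and 295 (127 to 436) CPM under 200 mg/kg. Irradiated mice and mice at 200 mg/kg on Day 1 were all above vehicle on Day 1. *Irf7*, which amplifies interferon production, had a log2 fold change of 2.32 (SE 0.26, adjusted p = 2.93e-05) after TBI and 1.34 (SE 0.16, adjusted p = 5.48e-06) at 200 mg/kg on Day 1, the latter -0.18 with total counts. Exons of *Irf7* overlap those of *Phrf1* on the opposite strand, and since the strand setting of the counting was not stated, reads of this pair may be mixed. With vehicle, 50, 100 and 200 mg/kg on Day 0, *Irf9* was at 35.1 (32.6 to 44.1), 37.3 (35.9 to 43.8), 41.9 (35.9 to 58.2) and 43.5 (39.1 to 45.8) CPM. The same groups on Day 1 had 40.4 (36.8 to 46.0), 39.1 (36.3 to 45.8), 49.6 (39.4 to 58.0) and 56.2 (45.7 to 58.5) CPM of *Irf9*. *Irf9* under TBI was at 97.3 (46.2 to 115) CPM in vehicle-treated and 96.0 (44.8 to 113) CPM in BIO 300-treated mice. The lowest irradiated, vehicle-treated mouse was just above the highest vehicle-treated mouse of Day 1. On Day 0, *Stat2* was at 27.0 (21.5 to 29.1) CPM with vehicle, 27.6 (24.5 to 31.6) CPM at 50 mg/kg, 27.3 (21.0 to 33.6) CPM at 100 mg/kg and 24.3 (19.7 to 27.7) CPM at 200 mg/kg. On Day 1 the levels in the same order of dose were 25.3 (22.3 to 31.7), 23.0 (21.0 to 24.4), 14.6 (13.1 to 16.0) and 18.5 (12.5 to 23.4) CPM. After TBI it was at 55.2 (28.2 to 80.7) CPM with vehicle and 43.8 (30.5 to 60.9) CPM at 200 mg/kg. *Stat2* at 100 mg/kg on Day 1 was below vehicle in every mouse. After TBI the log2 fold change was 1.16 (SE 0.21, adjusted p = 0.000726) for *Irf9* and 1.03 (SE 0.22, adjusted p = 0.00198) for *Stat2*, and neither was called at any dose of BIO 300 relative to vehicle. On Day 1 *Irf9* had 0.49 (adjusted p = 0.000442) at 200 mg/kg and *Stat2* had -0.76 (adjusted p = 2.89e-05) at 100 mg/kg, both under the fold threshold. With total counts these values were -1.05 and -2.14.

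The RNA sensors *Ddx58* (RIG-I), *Ifih1* (MDA5), *Dhx58* (LGP2) and the related helicase gene *Ddx60* were all significantly higher after TBI. Day 0 levels of *Ddx58* were 37.1 (32.7 to 41.6) CPM with vehicle, 42.4 (39.9 to 45.0) CPM at 50 mg/kg, 38.7 (30.9 to 51.8) CPM at 100 mg/kg and 37.2 (26.3 to 37.6) CPM at 200 mg/kg. Day 1 gave 38.9 (33.5 to 43.6) CPM with vehicle and 32.3 (30.3 to 35.8), 12.7 (10.2 to 19.0) and 14.5 (6.40 to 24.0) CPM at 50, 100 and 200 mg/kg. Irradiated mice had 94.8 (53.2 to 129) CPM with vehicle and 75.0 (41.6 to 101) CPM with 200 mg/kg BIO 300. *Ddx58* on Day 1 was above vehicle in every irradiated, vehicle-treated mouse and below it in every mouse at 100 and 200 mg/kg, while irradiated, BIO 300-treated mice overlapped vehicle at their lowest. Its log2 fold change was 1.22 (SE 0.21, adjusted p = 0.000521) after TBI, -1.44 (SE 0.16, adjusted p = 3.13e-06) at 100 mg/kg and -1.25 (SE 0.24, adjusted p = 0.00036) at 200 mg/kg. *Ifih1* on Day 0 lay at 12.3 (10.9 to 16.3) CPM with vehicle, 9.09 (8.48 to 11.1) CPM at 50 mg/kg, 13.2 (8.38 to 20.0) CPM at 100 mg/kg and 15.0 (11.1 to 17.1) CPM at 200 mg/kg. For Day 1 these levels were 10.6 (8.92 to 13.3), 11.5 (9.14 to 16.8), 13.2 (10.8 to 14.8) and 16.8 (13.6 to 18.1) CPM. With TBI, *Ifih1* reached 53.2 (36.2 to 91.8) CPM under vehicle and 46.2 (30.4 to 70.4) CPM under 200 mg/kg. *Ifih1* had a log2 fold change of 2.39 (SE 0.21, adjusted p = 6.82e-06) after TBI, with all irradiated mice above all vehicle-treated mice, and of 0.66 (SE 0.13, adjusted p = 0.000401) at 200 mg/kg on Day 1, under the fold threshold. *Ddx60* (2.78) and *Dhx58* (1.80) had log2 fold changes after TBI in the same range.

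Of 6 genes for regulators and ubiquitin or ADP-ribose transferases, 4 were significantly higher after TBI. *Usp18* removes Isg15 from proteins and restrains the receptor. With vehicle, 50, 100 and 200 mg/kg on Day 0, *Usp18* was at 12.7 (11.1 to 15.5), 9.56 (8.70 to 10.5), 11.1 (9.79 to 20.3) and 16.0 (13.6 to 16.2) CPM. The same groups on Day 1 had 11.4 (9.07 to 12.2), 12.2 (9.74 to 16.9), 17.6 (13.8 to 29.0) and 22.4 (17.1 to 28.4) CPM of *Usp18*. *Usp18* under TBI was at 48.0 (18.4 to 72.3) CPM in vehicle-treated and 49.1 (17.1 to 74.2) CPM in BIO 300-treated mice. *Usp18* was above vehicle on Day 1 in every irradiated mouse and in every mouse at 100 and 200 mg/kg. Its log2 fold change was 2.10 (SE 0.27, adjusted p = 7.16e-05) after TBI and 1.09 (SE 0.14, adjusted p = 8.5e-06) at 200 mg/kg, the latter -0.45 with total counts. *Trim30a*, a ubiquitin ligase that dampens inflammatory signalling, lay on opposite sides of vehicle on Day 1. On Day 0, *Trim30a* was at 38.4 (35.5 to 50.9) CPM with vehicle, 47.3 (45.7 to 51.8) CPM at 50 mg/kg, 44.9 (33.9 to 67.3) CPM at 100 mg/kg and 41.8 (34.3 to 45.4) CPM at 200 mg/kg. On Day 1 the levels in the same order of dose were 46.9 (44.7 to 53.8), 40.2 (35.8 to 42.3), 26.5 (15.1 to 31.2) and 28.0 (11.6 to 44.2) CPM. After TBI it was at 179 (96.8 to 253) CPM with vehicle and 155 (70.9 to 208) CPM at 200 mg/kg. Irradiated mice were above vehicle and mice at 100 and 200 mg/kg on Day 1 below it, with log2 fold changes of 1.82 (SE 0.23, adjusted p = 5.04e-05), -0.90 (SE 0.16, adjusted p = 0.00019) and -0.62 (SE 0.23, adjusted p = 0.0264), of which the first passed the fold threshold. *Herc6*, the mouse ligase that attaches Isg15, was called higher after TBI (1.34) and at 200 mg/kg on Day 1 (1.16, -0.37 with total counts). *Parp14* was called higher after TBI (1.21) and lower at 200 (-1.05) and 100 mg/kg (-1.42). *Parp9* and *Dtx3l*, whose exons overlap on opposite strands, were called in neither.

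The PYHIN genes, whose proteins bind DNA, held both of the members called lower after TBI. *Ifi203* was at 101 (93.7 to 118) CPM with vehicle on Day 1, 24.7 (17.0 to 36.6) CPM at 100 mg/kg, 25.9 (9.22 to 43.2) CPM at 200 mg/kg and 27.1 (14.8 to 43.4) CPM after TBI. No mouse of the 3 treated groups reached the lowest vehicle-treated mouse. *Ifi203* had a log2 fold change of -1.93 (SE 0.21, adjusted p = 2.2e-05) after TBI, -1.91 (SE 0.18, adjusted p = 5.17e-07) at 100 mg/kg and -1.83 (SE 0.28, adjusted p = 6.4e-05) at 200 mg/kg. Exons of *Ifi203* overlap those of the family member *Mndal* on the same strand, and reads of close paralogs are uncertain. Day 0 levels of *Ifi204* were 6.97 (3.79 to 8.20) CPM with vehicle, 8.91 (7.62 to 10.4) CPM at 50 mg/kg, 8.59 (5.49 to 12.6) CPM at 100 mg/kg and 7.23 (6.22 to 13.0) CPM at 200 mg/kg. Day 1 gave 9.18 (7.53 to 10.0) CPM with vehicle and 6.26 (5.27 to 7.39), 2.46 (1.92 to 4.92) and 4.42 (1.84 to 9.77) CPM at 50, 100 and 200 mg/kg. Irradiated mice had 2.48 (1.2 to 11.4) CPM with vehicle and 2.03 (1.10 to 5.68) CPM with 200 mg/kg BIO 300. In *Ifi204*, 1 irradiated, vehicle-treated mouse stood above all vehicle-treated mice of Day 1, and the log2 fold change was -1.29 (SE 0.44, adjusted p = 0.0296), for which DESeq2 gave no adjusted p. At 100 mg/kg on Day 1 it was -1.53 (SE 0.22, adjusted p = 3.33e-05).

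The guanylate-binding proteins and immunity-related GTPases attack the vacuoles of intracellular pathogens and are classic targets of type II interferon. *Gbp2* on Day 0 lay at 19.4 (16.9 to 22.5) CPM with vehicle, 21.0 (18.6 to 31.5) CPM at 50 mg/kg, 23.6 (12.7 to 32.8) CPM at 100 mg/kg and 23.3 (17.4 to 36.6) CPM at 200 mg/kg. For Day 1 these levels were 22.9 (18.6 to 30.6), 19.1 (16.9 to 23.6), 10.7 (7.59 to 15.5) and 14.6 (4.12 to 47.1) CPM. With TBI, *Gbp2* reached 94.6 (53.8 to 161) CPM under vehicle and 88.7 (33.4 to 139.8) CPM under 200 mg/kg. *Gbp2* was above vehicle in every irradiated mouse, with a log2 fold change of 2.06 (SE 0.26, adjusted p = 6.43e-05), and below vehicle in every mouse at 100 mg/kg on Day 1, with -1.05 (SE 0.17, adjusted p = 0.000118). Without the libraries with *Alb* at 100 CPM or more the latter was -0.998 and just short of the fold threshold. *Gbp7* was called higher after TBI (1.22), and *Gbp3* (0.51) was not. With vehicle, 50, 100 and 200 mg/kg on Day 0, *Igtp* was at 83.0 (69.1 to 107), 56.7 (41.0 to 63.9), 86.0 (62.5 to 112) and 104 (92.5 to 157) CPM. The same groups on Day 1 had 69.4 (57.6 to 84.6), 93.8 (71.0 to 107), 249.8 (231 to 448) and 342 (281 to 374) CPM of *Igtp*. *Igtp* under TBI was at 323 (113 to 478) CPM in vehicle-treated and 478 (139 to 694) CPM in BIO 300-treated mice. *Igtp* was above vehicle on Day 1 in every irradiated mouse and in every mouse at 100 and 200 mg/kg. Its log2 fold change was 2.30 (SE 0.13, adjusted p = 1.76e-08) at 200 mg/kg, 2.13 (SE 0.18, adjusted p = 1.97e-07) at 100 mg/kg and 2.14 (SE 0.28, adjusted p = 8.19e-05) after TBI, and it stayed positive with total counts at both doses (0.75 and 0.70). Exons of *Igtp* overlap those of *Irgm2* on the same strand. *Irgm1* was called higher after TBI (1.25). *Iigp1* was not called in any comparison and varied with *Alb*, with a median of 26.5 CPM (5.94 to 121) in the 10 libraries with *Alb* at 100 CPM or more and 4.20 CPM (0.434 to 6.90) in the other 50.

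**Figure D3:**
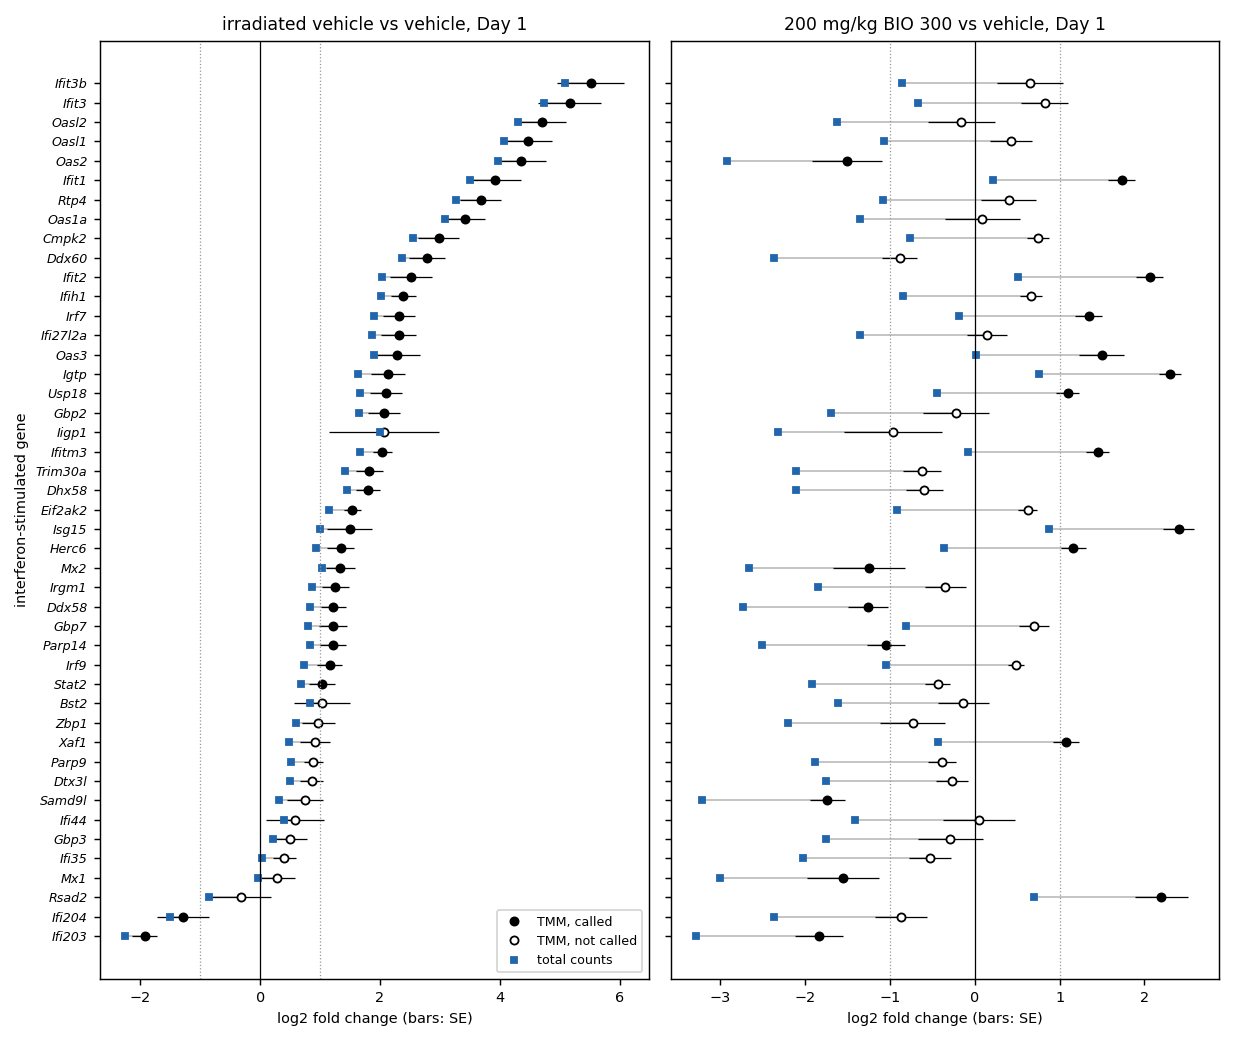
Log2 fold changes (horizontal) of the 45 genes (vertical) after TBI and at 200 mg/kg on Day 1, each against vehicle on Day 1, as circles with SE bars on the TMM scale (filled where called) and squares with total counts, with dotted lines at the fold threshold. The squares lie left of the circles by little after TBI and by more than 1 at 200 mg/kg, where no square is past the upper threshold.

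Side by side, the fold changes after TBI and at 200 mg/kg on Day 1 ran together for some genes and apart for others. Both comparisons use the same vehicle-treated mice of Day 1, so that the counts of shared calls below describe the genes and are no test. Shares of all genes called in both of 2 comparisons are not given here. Whether any overlap of calls below is particular to the 45 genes can therefore not be told. *Isg15*, *Ifit1*, *Ifit2*, *Oas3*, *Irf7*, *Usp18*, *Herc6*, *Ifitm3* and *Igtp* (9 genes) were called higher in both, although *Irf7*, *Usp18*, *Herc6* and *Ifitm3* turned negative at 200 mg/kg with total counts, and *Ifi203* was called lower in both. *Oas2*, *Mx2*, *Ddx58* and *Parp14* were called higher after TBI and lower at 200 mg/kg. A further 18 genes, among them *Ifit3*, *Ifit3b*, *Oas1a*, *Oasl1*, *Oasl2* and *Rtp4*, were called higher after TBI and not at 200 mg/kg. Some of these, such as *Ifit3* and *Eif2ak2*, passed the adjusted p threshold at 200 mg/kg and not the fold threshold. *Rsad2* and *Xaf1* were called higher at 200 mg/kg and not after TBI (*Xaf1* turned negative at 200 mg/kg with total counts), and *Mx1* and *Samd9l* were called lower at 200 mg/kg and not after TBI. Between 100 and 200 mg/kg on Day 1 the calls overlapped in 6 genes higher (*Isg15*, *Ifit1*, *Ifit2*, *Rsad2*, *Ifitm3* and *Igtp*) and 7 lower (*Oas2*, *Mx1*, *Mx2*, *Ddx58*, *Ifi203*, *Parp14* and *Samd9l*), again with shared controls, and with total counts *Ifitm3* turned negative at both doses and *Ifit1* at 100 mg/kg. Compared directly, edgeR and DESeq2 both called 0 of the 45 genes between 100 and 200 mg/kg on Day 1 (0% of all genes). Log2 fold changes ran from -0.81 (*Iigp1*) to 0.94 (*Ifi44*). An unadjusted p under 0.05 in edgeR was reached by 10 of the 45 genes and 725 of all 19942 genes. Between 50 and 100 mg/kg on Day 1, the larger dose had 5 of the 45 genes higher and 9 lower (19.7% and 26.6% of all genes), and 0 were higher and 26 lower with total counts. The higher ones were *Ifit2* (1.79), *Igtp* (1.77), *Isg15* (1.21), *Ifitm3* (1.18) and *Ifit1* (1.05), as log2 fold changes. The largest falls were in *Ifi203* (-1.70), *Oas2* (-1.69), *Samd9l* (-1.63), *Mx1* (-1.60) and *Zbp1* (-1.35).

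The study asked whether BIO 300 given before TBI changes the response of blood to radiation. Among irradiated mice, the 45 genes did not differ detectably between 200 mg/kg BIO 300 and vehicle. edgeR and DESeq2 both called 0 of the 45 genes and edgeR called 0% of all 24916 genes tested, while 0 of the 45 genes and 688 of all genes had an unadjusted p under 0.05. The log2 fold changes ran from -1.19 (*Iigp1*, SE 1.16) to 0.45 (*Igtp*, SE 0.37), with a median of -0.20 against -0.07 over all genes, and 39 of 45 were negative. All genes of a mouse share its scaling factor, so that the 45 signs are not independent observations. The mean over the 45 genes of log2(CPM + 1) had a median of 5.93 (5.45 to 6.53) in irradiated, vehicle-treated mice and 5.88 (5.19 to 6.35) in irradiated, BIO 300-treated mice, with wide overlap. The 8 unirradiated groups had medians between 4.06 and 4.42 on this scale.

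Within the 200 mg/kg groups, 26 of the 45 genes were significantly higher and 1 was lower with TBI than without (14.9% and 5.73% of all genes), and 38 were higher and 1 lower with total counts. *Oas2* (5.50), *Ifit3b* (4.85), *Oasl2* (4.78), *Ifit3* (4.35) and *Oasl1* (3.97) had the largest log2 fold changes. *Rsad2* was the gene called lower, with a log2 fold change of -2.38 (SE 0.38, adjusted p = 0.000625), and no irradiated mouse reached the lowest unirradiated one. *Isg15* had a log2 fold change of -0.75 (SE 0.28, adjusted p = 0.06), not significant. The effect of TBI under 200 mg/kg was then compared with that under vehicle in an interaction test over the 24 mice of those groups. It called 13 of the 45 genes, 4 with a higher and 9 with a lower effect of TBI under BIO 300 (19.5% and 10% of all genes, and 16 higher and 0 lower with total counts). The effect of TBI was lower under BIO 300 for *Isg15*, at -2.10 (SE 0.46, adjusted p = 0.0015), for *Rsad2*, at -1.93 (SE 0.60, adjusted p = 0.0161), and for *Ifit2* (-1.70), *Igtp* (-1.62), *Ifit1* (-1.62), *Oas3* (-1.49), *Ifitm3* (-1.35), *Herc6* (-1.20) and *Irf7* (-1.12, 0.03 with total counts), as differences of log2 fold changes. It was higher for *Ifi203*, at 2.00 (SE 0.39, adjusted p = 0.000626), and for *Mx1* (1.61), *Samd9l* (1.60) and *Ddx58* (1.11). Between the irradiated groups the log2 fold changes of these 13 genes lay between -0.36 (*Ddx58*) and 0.45 (*Igtp*), and between the unirradiated groups of Day 1 they lay between -1.83 (*Ifi203*) and 2.41 (*Isg15*).

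The effect of BIO 300 relative to vehicle was also compared between Day 1 and Day 0, with different mice on each day. At 200 mg/kg 6 genes had a higher and 7 a lower effect on Day 1 (13.1% and 23.6% of all genes), and with total counts 0 higher and 25 lower. The largest differences of log2 fold changes were in *Igtp* (1.86), *Rsad2* (1.76), *Ifit2* (1.74) and *Isg15* (1.61) upwards and in *Mx1* (-1.90), *Ifi203* (-1.90) and *Samd9l* (-1.74) downwards. At 100 mg/kg 5 had a higher and 16 a lower effect on Day 1 (15.7% and 26.3%, and 0 and 33 with total counts), led by *Igtp* (2.09) and *Ifit2* (2.00) and by *Mx1* (-2.79) and *Oas2* (-2.12). At 50 mg/kg 6 had a higher and 0 a lower effect on Day 1 (6.73% and 0.961%), while total counts gave 3 higher and 23 lower. These were *Rsad2* (2.52), *Isg15* (2.46), *Oas3* (2.14), *Irf7* (1.26), *Ifit1* (1.24) and *Xaf1* (1.01, -0.03 with total counts).

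Markers of blood cell types moved with the same groups. After TBI all 8 neutrophil markers were significantly higher, with a median log2 fold change of 2.78 and summed levels of 1180 to 6670 CPM against 434 to 706 CPM with vehicle on Day 1. All 8 B cell markers and all 8 T cell markers were lower (medians -3.49 and -2.41), as were 7 of 8 plasmacytoid dendritic cell markers and 6 of 8 NK cell markers, while all 8 platelet markers were higher (2.57). Monocyte markers were divided, 2 higher and 3 lower of 8, and 1 of 8 hepatocyte markers, 0 of 7 erythroid and 0 of 4 haemoglobin genes were called. Summed B cell markers lay at 53.8 to 139 CPM after TBI against 862 to 1330 CPM with vehicle, and summed T cell markers at 32.2 to 166 CPM against 512 to 651 CPM. At 200 mg/kg on Day 1 all 8 platelet, all 7 erythroid and all 4 haemoglobin genes were higher and all 8 B cell and all 8 T cell markers lower, with erythroid markers summing to 125000 to 243000 CPM against 28700 to 70000 CPM. With total counts all 8 platelet, 0 of 7 erythroid and 2 of 4 haemoglobin genes were called higher at that dose. No neutrophil, NK cell or hepatocyte marker was called there, and monocyte markers had 1 higher and 3 lower of 8, and plasmacytoid dendritic cell markers 0 higher and 2 lower of 8. At 100 mg/kg on Day 1 all 8 platelet and 5 of 7 erythroid markers were higher and all 8 B cell and all 8 T cell markers lower. At 50 mg/kg on Day 0, 6 of 7 erythroid and 6 of 8 platelet markers were lower, the erythroid ones at 14800 to 41600 CPM against 44900 to 81300 CPM. The marker calls at 100 mg/kg on Day 1 and at 50 mg/kg on Day 0 are given for the TMM scale only. They depend on the choice of scale described above. No defining marker of these lists was at 0 in a whole group. The part of these shifts in the changes of the interferon-stimulated genes was not tested.

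**Figure D4:**
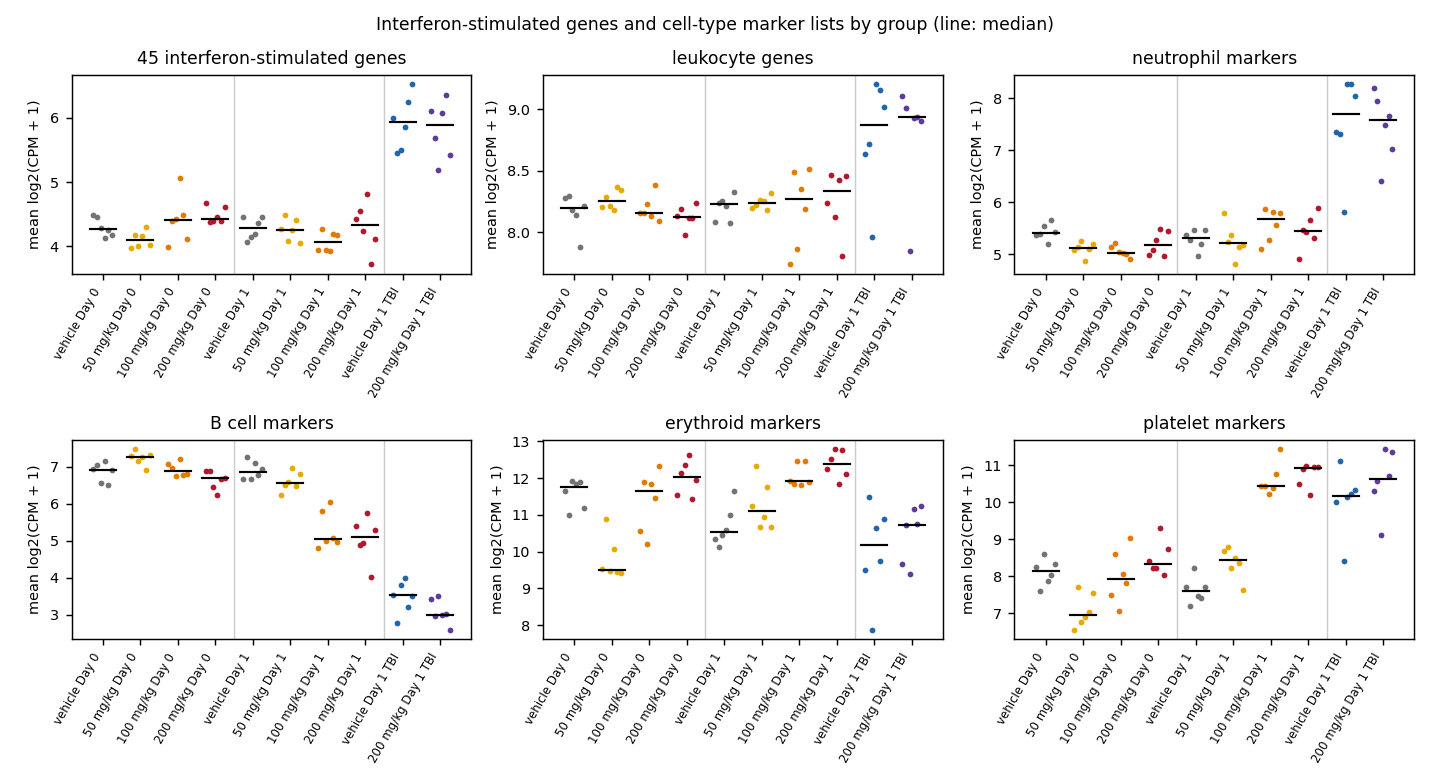
Mean log2(CPM + 1) (vertical) of the 45 genes and of 5 marker lists in the 10 groups (horizontal), with 1 point per mouse and a line at the median. The irradiated groups are raised in the 45 genes and the neutrophil markers and lowered in the B cell markers, and erythroid markers are lowest at 50 mg/kg among the Day 0 groups.

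The mean log2(CPM + 1) of the 45 genes was 1.65 higher after TBI than with vehicle on Day 1 on the TMM scale, and 1.24 higher with total counts. Set against the summed counts of 8 pan-leukocyte genes, with each of the 45 genes weighted the same, it was 1.06 higher. At 200 mg/kg on Day 1 the corresponding differences were 0.03, -1.24 and -0.26, and at 100 mg/kg they were -0.21, -1.38 and -0.41. The difference after TBI was therefore positive on each of these scales, and those at the upper doses were near 0 or negative. The pan-leukocyte genes did not all move together. In the test of whether the effect of 200 mg/kg relative to vehicle differed between Day 1 and Day 0, *Ptprc* was called lower (-1.37). That test is not one of the comparisons whose differences are given above. *Itgb2* (1.59), *Laptm5* (1.25) and *Arhgdib* (1.17) were called higher there, and the others were not called. The sum of these genes is thus not a fixed measure of leukocytes.

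Within groups, several of the 45 genes varied together with erythroid markers from mouse to mouse. The deviation of each of the 48 unirradiated mice from its group mean was compared with the same deviation of the mean of the erythroid markers, both in log2(CPM + 1), with 100000 permutations within groups and Benjamini-Hochberg adjustment over 135 relations (45 genes, 3 marker lists). For *Rsad2* Pearson's r was 0.97 and Spearman's rho 0.96, both with a permutation p of 1e-05, the smallest these permutations can give (adjusted 0.00027), and r was 0.96 without the 2 mice farthest from the median. The next were *Herc6* (r 0.86, rho 0.89), *Isg15* (r 0.84, rho 0.83), *Oas3* (r 0.76, rho 0.78) and *Ifit1* (r and rho 0.70), with adjusted permutation p of 0.00027 or 0.00045 and r of 0.66 to 0.84 without the 2 farthest mice. For *Ifit3*, which had the largest log2 fold change after TBI of the 20 genes given in all groups, r was 0.05 (permutation p 0.79). By the adjusted p of Pearson's r, 15 genes had a positive and 6 a negative relation with erythroid markers, 12 and 2 with B cell markers, and 1 and 0 with neutrophil markers. By that of Spearman's rho the numbers were 13 and 4, 6 and 1, and 1 and 0. *Ifi203* had r 0.80 and rho 0.71 with B cell markers (adjusted permutation p 0.00027 for each). Both measures of a mouse carry the same library scaling factor, and what these relations stem from was not tested.

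**Figure D5:**
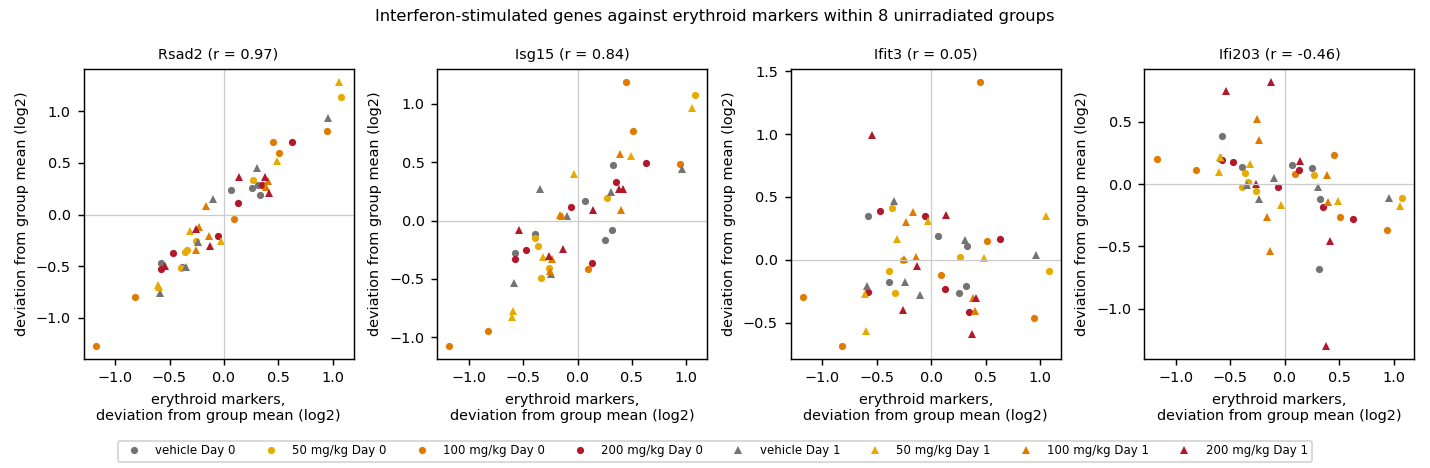
Deviation of *Rsad2*, *Isg15*, *Ifit3* and *Ifi203* (vertical) against that of the mean of erythroid markers (horizontal), in log2(CPM + 1) units from the group mean, with 1 point for each of 48 unirradiated mice, coloured by dose and shaped by day. Points lie along a rising line for *Rsad2* (r = 0.97), scatter more for *Isg15* (0.84), show no trend for *Ifit3* (0.05) and fall for *Ifi203* (-0.46).

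Of the genes upstream of the response, most interferon genes were at or near 0 counts. Of 13 interferon ligand genes on the list, 2 (*Ifng* and *Ifnk*) reached the count minimum. *Ifnb1* had 5 counts over all 60 mice, 2 of them in irradiated, vehicle-treated mice and 2 in irradiated, BIO 300-treated mice, and the 7 type I alpha genes had 1 count in all. *Ifng*, the type II interferon, was at 0.279 (0.189 to 1.83) CPM with vehicle on Day 1 and 0.267 (0.028 to 0.418) CPM after TBI, and was not called. *Ifnk* was called lower at both upper doses on Day 1, 200 and 100 mg/kg, on 5 counts and 1 count over 6 mice against 78 with vehicle. Of 6 receptor chains, 1 was higher and 0 were lower after TBI (19.6% and 16.4% of all genes). With 200 mg/kg on Day 1, 2 chains were higher and 1 lower (17.3% and 30.5% of all genes, and 0 and 4 chains with total counts). The chain *Ifnar1* was at 60.1 (55.2 to 61.5) CPM with vehicle on Day 1, 32.0 (24.2 to 37.2) CPM at 200 mg/kg and 67.7 (49.2 to 82.0) CPM after TBI, with log2 fold changes of -0.85 and 0.17, not called. *Ifnar2* was called higher at 200 mg/kg (1.07, -0.48 with total counts) and not after TBI (0.80), and *Ifnlr1*, the chain specific to type III interferon, was called higher after TBI (2.49). Of 12 kinases and factors, 2 were higher and 1 lower after TBI (1 and 3 with total counts), which is no more than the shares of all genes, the lower one being *Irf8*, which fell by 3.19 on the log2 scale. *Irf1* (0.59), a factor induced by interferon, was not called after TBI. Of 10 nucleic acid sensors with counts, 0 were higher and 3 lower after TBI (0 and 4 with total counts), led by *Tlr9* (-2.87).

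A list of other interferon-induced genes had 50 that were tested. After TBI 14 were higher and 7 lower (19.6% and 16.4% of all genes), with a median log2 fold change of 0.35, and 12 and 10 with total counts. With 200 mg/kg on Day 1 the list had 4 higher and 15 lower (17.3% and 30.5% of all genes), and 0 and 42 with total counts. The numbers for 100 mg/kg were 3 and 23 (18.2% and 30.6% of all genes), and 0 and 44 with total counts. *Slfn4*, a myeloid gene, was at 59.9 (28.7 to 78.1) CPM with vehicle on Day 1, 7.53 (4.22 to 32.7) CPM at 200 mg/kg and 2680.0 (911 to 4840.0) CPM after TBI, the largest change of this list after TBI (5.56). *Lgals3bp* was the largest at 200 mg/kg (2.39, 0.87 with total counts). Among 6702 genes outside the 45 with a mean of at least 10 CPM, the 5 whose levels followed the mean of the 45 genes most closely over the 60 mice were *Irgm2* (Pearson's r 0.97), *Slfn5* (0.95), *Gbp2b* (0.94), *Fgl2* (0.93) and *Parp10* (0.93). Exons of *Irgm2* overlap those of *Igtp*, one of the 45 genes, on the same strand, so their counts may not be independent. The 12 irradiated mice stand apart from the other 48 on the mean of the 45 genes, and all genes of a mouse share its scaling factor.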

How the data were processed

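RNA of PAXgene-preserved blood from the inferior vena cava was sequenced on an Illumina sequencer. The study's methods name a stranded total RNA kit that depletes ribosomal and globin transcripts. The labels instead name polyA selection, and the conflict was not resolved. To make the counts, the authors used Trimmomatic 0.36 for trimming, STAR 2.5.2b for alignment to the build GRCm38 and Subread 1.5.2 for unique hits per gene. The annotation release and strand setting were not given in the sources used here. The deposited raw counts per gene and mouse were used for all values. The deposited comparison tables also hold normalised signal per mouse, the authors' log2 fold changes and their DESeq2 p-values. Their gene names were used, and their comparison columns were not.

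Pairs of groups were compared with edgeR 4.0.16 (R 4.3.3, limma 3.58.1), with TMM factors, genes with at least 10 summed counts, the quasi-likelihood test and Benjamini-Hochberg adjustment over all genes tested. Differences between effects were tested as interactions over 24 mice. A pseudocount of 1 CPM was used for levels on the log2 scale. The fits were tested on simulated data. DESeq2 1.42.0, its size factors, total counts, other filters, a fit of all 60 mice, each mouse left out in turn and the libraries with *Alb* at 100 CPM or more left out were alternatives. Tables and plots were made with Python 3.11.15, pandas 2.3.3, numpy 2.4.6, scipy 1.17.1 and matplotlib 3.10.9.

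Genes described in full were 20 fixed by role, together with the 5 called genes with the largest rise and the 5 with the largest fall in each comparison, and others were named after their values were seen. The 45 genes, the marker lists and the other interferon lists were chosen with earlier results of these data known.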

Additional observations from a re-analysis of the deposited data

Results flagged for a closer look

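The levels of the 20 genes fixed by role were searched for a single mouse far from the rest of its group of 6, by Dixon's criterion, as was the mean over the 45 genes, in 210 combinations of measure and group. Of these 9 passed the criterion, where chance gives about 1 in 20, so that the number is no more than chance gives. All values are log2(CPM + 1). The irradiated, BIO 300-treated mouse 57 had *Isg15* at 5.15 and *Bst2* at 4.58. The irradiated, vehicle-treated mouse 51 had *Ifi204* at 3.64 and *Igtp* at 6.84. Mouse 19, at 200 mg/kg on Day 0, had *Mx1* at 2.66 and *Ifi204* at 3.81. Mouse 10, at 100 mg/kg on Day 0, had *Ifi27l2a* at 5.5, vehicle-treated mouse 17 on Day 0 had *Bst2* at 3.5, and mouse 47, at 200 mg/kg on Day 1, had *Bst2* at 1.27.

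Tests of the difference between effects called genes in each of the 4 contrasts made. The effect of TBI under 200 mg/kg differed from that under vehicle for 13 genes, 4 higher and 9 lower (19.5% and 10% of all genes). Among the genes fixed by role the differences of log2 fold changes were -2.10 for *Isg15*, -1.62 for *Ifit1*, -1.93 for *Rsad2*, 1.61 for *Mx1*, -1.12 for *Irf7*, 1.11 for *Ddx58*, -1.36 for *Ifitm3* and -1.62 for *Igtp*. The effect of 200 mg/kg differed between Day 1 and Day 0 for 13 genes, 6 higher and 7 lower (13.1% and 23.6% of all genes). The differences were 1.62 for *Isg15*, 1.16 for *Ifit1*, 1.76 for *Rsad2*, -1.49 for *Oas2*, -1.90 for *Mx1*, -1.12 for *Ddx58*, -1.16 for *Ifi204*, 1.2 for *Ifitm3* and 1.86 for *Igtp*. At 100 mg/kg the effect differed for 21 genes, 5 higher and 16 lower (15.7% and 26.3% of all genes). The differences were 1.87 for *Isg15*, 1.19 for *Ifit1*, 1.61 for *Rsad2*, -2.12 for *Oas2*, -1.16 for *Oasl2*, -2.80 for *Mx1*, -1.52 for *Ddx58*, -1.95 for *Ifi204*, -1.10 for *Trim30a*, -1.26 for *Gbp2* and 2.09 for *Igtp*. At 50 mg/kg the effect differed for 6 genes, 6 higher and 0 lower (6.73% and 0.961% of all genes). The differences were 2.46 for *Isg15*, 1.24 for *Ifit1*, 2.52 for *Rsad2* and 1.26 for *Irf7*. Different mice were bled on the days compared, and the scale of the libraries at 100 and 200 mg/kg on Day 1 enters the contrasts that use them.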

How the results depend on the processing

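The choice of scale moved the results most. Scaled by total counts, 31 of the 45 genes were called at 100 mg/kg (Day 1), 28 at 200 mg/kg (Day 1), 26 between 50 and 100 mg/kg (Day 1), 6 at 50 mg/kg (Day 0), and 25, 33 and 26 in the contrasts of Day 1 with Day 0 at 200, 100 and 50 mg/kg. On that scale the mean over the 45 genes differed from vehicle on Day 1 by -1.24 with the highest dose and by -1.38 with the middle dose. Of all 201 called log2 fold changes of the 45 genes, 12 turned sign with total counts. Of these, *Herc6* (-0.37) and *Xaf1* (-0.435) at 200 mg/kg on Day 1 and *Xaf1* in the contrast of days at 50 mg/kg (-0.032) lay outside the 141 fold changes of genes chosen by the naming rule. Of the 141, 96 kept direction and call, 36 lost the call and 9 turned sign, namely *Ifit1* (-0.047) and *Ifitm3* (-0.18) at 100 mg/kg on Day 1, *Irf7* (-0.18), *Usp18* (-0.45) and *Ifitm3* (-0.085) at 200 mg/kg on Day 1, *Irf7* in the contrast of TBI with dose (0.027), and *Ifitm3* (-0.088) and *Ifit1* (-0.089 and -0.16) in the contrasts of days at 200 and 100 mg/kg. DESeq2 kept 140 of the 141, gave no adjusted p for *Ifi204* after TBI, and called 1 gene between the vehicle groups. Its size factors in edgeR kept 140, filterByExpr 137, no filter 141, a fit of all 60 mice 140, and leaving out the libraries with *Alb* at 100 CPM or more 136, and the others kept their direction and lost the call. Without each mouse in turn the counts ran from 31 to 36 after TBI against Day 1, 30 to 38 against Day 0, 16 to 21 with 200 mg/kg (Day 1), 16 to 20 with 100 mg/kg (Day 1), 3 to 5 with 50 mg/kg on Day 0 (5 without mouse 2 of that dose) and 0 to 0 between the irradiated groups. No paired analysis was possible because animal numbers were not shared between groups. Causes of these changes were not tested. Genes under a few CPM, such as *Oas1a*, *Mx2* and *Ifi44* in unirradiated mice, rest on few counts, which limits what could be detected for them.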

Other observations

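*Iigp1*, an immunity-related GTPase, was the gene of the 45 whose highest mouse was most often a library with *Alb* at 100 CPM or more, in 8 of the 9 groups that held such a library. *Bst2* followed with 5 of 9 and *Mx2* with 4 of 9. Without these libraries 34 genes were higher and 2 lower after TBI than with vehicle on Day 1, and 11 were higher and 8 lower at 200 mg/kg on Day 1. The part of *Alb*-rich libraries in the levels of *Iigp1* was not tested.

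Set against summed pan-leukocyte genes, the summed counts of the 45 genes gave another order of groups than their mean. The log2 ratio differed from vehicle by 0.207 after TBI, by 1.445 with 200 mg/kg (Day 1), by 1.035 with 100 mg/kg (Day 1) and by -1.26 with 50 mg/kg (Day 0). Without *Rsad2* the same differences were 1.04, 0.19, 0.006 and -0.27. All these ratios rest on the pan-leukocyte genes above, which did not all move together.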
